A study of Mus musculus with 51 samples.

Results

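Alveolar macrophages taken from C57Bl/6 mice 4 h after the higher dose of Aspergillus fumigatus conidia (labelled e7, 4 arrays) were set against those taken 4 h after polystyrene beads (2 arrays), particles that carry no fungal wall. These 6 arrays, chosen by their titles, were all that the 2 groups held, of 51 arrays in the series. The study instilled conidia or beads into the lungs of living mice and asked whether macrophages of a normal and an immune-compromised host respond differently. Differences for some other groups are given beside this comparison. C57Bl/6 groups were mock at 2 h and 4 h, e7 conidia at 2 h and e6 conidia at 4 h (4 arrays each). The others were gp91phox-/- mice (KO), which lack a working phagocyte NADPH oxidase, given mock or e7 conidia (3 arrays each) at 2 h and 4 h. The main fit held all 51 arrays in 15 groups, and its p-values use the spread within all of them. It also held untreated C57Bl/6 and KO mice, and mice given e6 conidia (C57Bl/6 at 2 h, KO at 2 h and 4 h). The labels give no unit for e6 and e7, no number or size of beads, no age of the mice and no number of mice per array. They call replicates biological, and the p-values measure the spread between arrays as labelled. For the 4 h mock arrays, title (mock) and treatment field (conidia) disagree, and the source field of the bead arrays adds an untreated control. Titles were followed.

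Conidia are the airborne spores of the mould, and alveolar macrophages are the resident phagocytes that meet them first. A macrophage that swallows a bead goes through binding, actin-driven uptake and passage to the lysosome. A conidium adds a cell wall of glucans, mannans and chitin, which swelling spores expose to receptors such as dectin-1 (Clec7a) and the Toll-like receptors, and these feed the kinases and NF-kB that switch on cytokine, chemokine and immediate-early genes. A difference between e7 conidia and beads sets one kind of particle against another, and kind and number of particles cannot be told apart, since the labels give no bead number.

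Values were the authors' deposited signals, 1 per probe set and array. A gene was represented by its brightest probe set with 1 symbol, differences are log2, e7 conidia minus beads, and the error after ± is limma's standard error, which pools the spread over all 15 groups. A gene was called when limma's Benjamini-Hochberg adjusted p, over 22626 probe sets, was under 0.05. With 4 arrays against 2 the test called 20% of simulated 2-fold and 64% of simulated 4-fold changes among 200 changed probe sets, so a gene that was not called is not shown to be equal.

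Of 12393 genes, 159 were called higher (1.28%) and 334 lower (2.7%) with e7 conidia than with beads, which was 3.98% in all. Among the called genes, 402 had no overlap between the 4 e7 arrays and the 2 bead arrays, while over all genes 4.69% lay wholly above and 13.5% wholly below. The median difference of all genes was -0.26, and it was -0.06 after quantile normalization. The balance of calls moved with this scaling: of 812 probe sets called (3.59%), 309 were higher (1.37%) and 503 lower (2.22%), and after quantile normalization 439 were higher and 306 lower. Fitted on the 6 arrays alone, limma called 0 probe sets, with 1387 at an unadjusted p under 0.05, so every call rests on the spread shared with the other groups. The plot of differences by signal level shows the shift below 0 growing among dim genes, where the median difference was -0.59 for genes averaging a signal under 50 and -0.14 for those averaging at least 100.

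**Figure D1:**
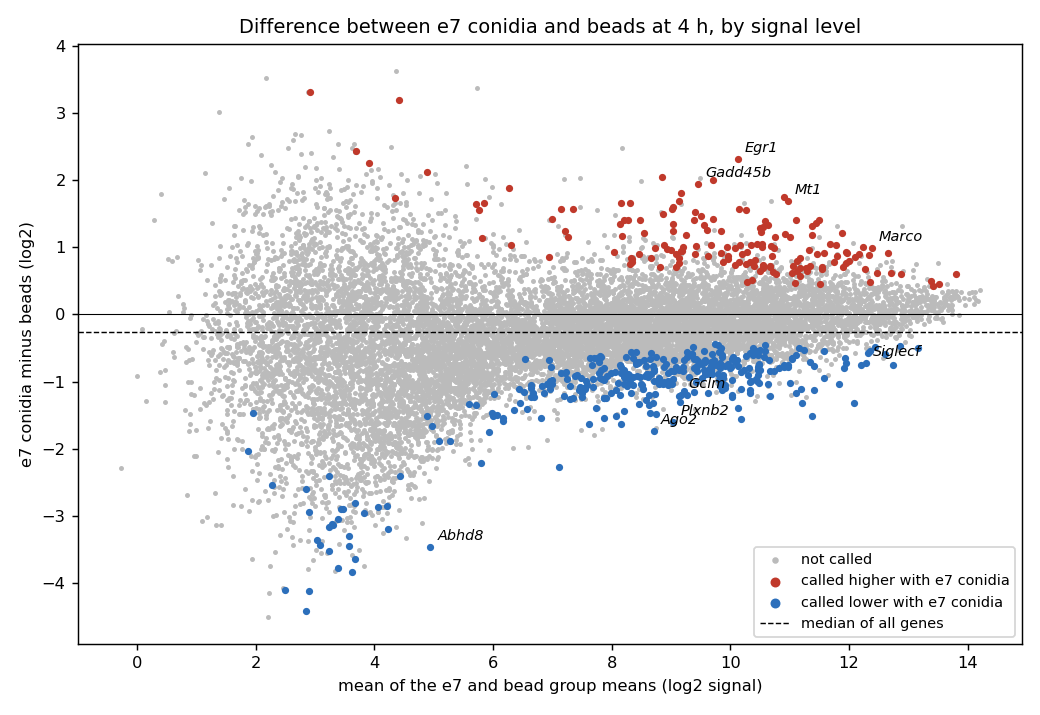
Each point is 1 gene; the x axis is the mean of the e7 and bead group means (log2 signal) and the y axis the difference, e7 conidia minus beads (log2). Red points are the 159 genes called higher and blue points the 334 called lower with e7 conidia, and the dashed line is the median of all genes at -0.26.

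The arrays themselves differed in RNA measures. The 3'/5' ratio of the control transcripts (log2), which rises with RNA degradation and with shorter labelled fragments, was 1.64, 2.34, 3.83 and 1.26 on the e7 arrays, against 4.11 and 5.32 on the bead arrays. The groups did not overlap, and the exact two-sided permutation p was 0.1333 (adjusted 0.44 over 11 array measures; 4 against 2 cannot go below 0.0667). Bead replicate 1 stood apart in another way: 30.1% of its probe sets had a signal under 50, against 42.7% to 44.9% on the e7 arrays and 43.6% on bead replicate 2. With the 3'/5' ratio as a covariate, 388 of the 493 genes were still called. Without bead replicate 1, 38 of the 493 were. Of the 50 called genes that are named below or belong to a gene list, 24 lost the call with array weights, 10 with quantile normalization and 42 without e7 replicates 2 and 3 together. Egr1, Tnf, Ccrl2, Mt1, Marco and Zfp36 were among those lost with weights. The losses given below for single genes are not a full list over the alternatives. Of the 50, 0 changed sign under any alternative. In 28 all e7 arrays lay above both bead arrays and in 19 all lay below, so leaving out arrays could not change their sign. The part of these measures in the gene differences was not tested beyond these fits.

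**Figure D2:**
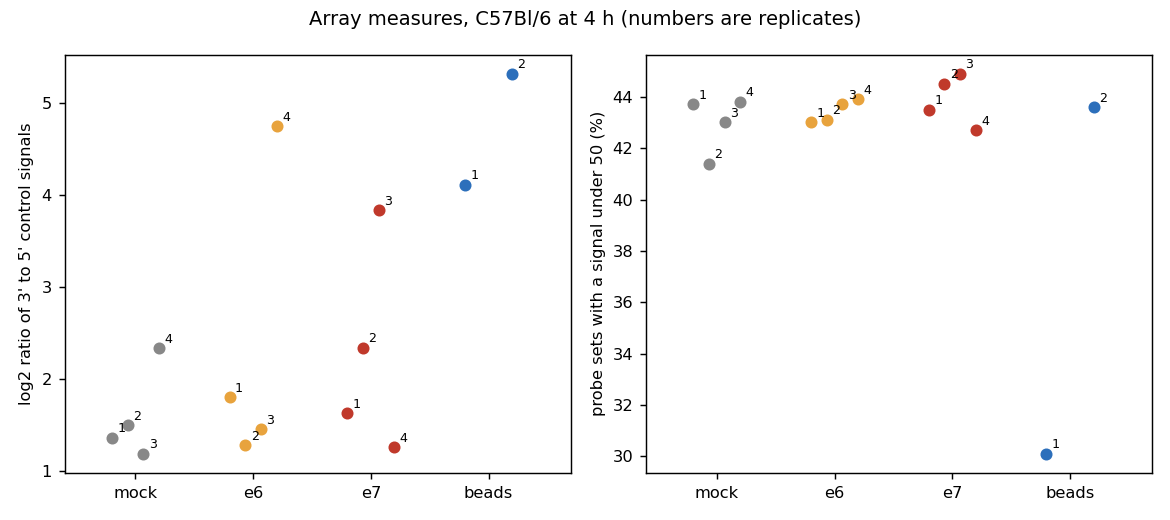
Left, the 3'/5' ratio of control transcripts per array (log2); right, the percentage of probe sets with a signal under 50. Points are single arrays of the mock, e6, e7 and bead groups at 4 h, numbered by replicate; both bead arrays sit above every e7 array at left, and bead replicate 1 lies alone at 30.1% at right.

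The cells carried an alveolar macrophage profile in both groups. All 16 measured markers of that cell, among them Marco, Siglecf, Chil3 and Cidec, averaged a log2 signal of at least 10 in each group, and their mean per array was 12.58 to 12.86 with e7 conidia and 12.53 to 12.57 with beads. Neutrophil markers (13 measured) averaged a log2 signal of 5.3, 5.64, 7.65 and 6.04 on the e7 arrays, against 6.24 and 4.91 on the bead arrays. None of the 13 was called, although the granule protein gene Ltf differed by 3.37 (limma adjusted p = 0.132) and the calprotectin gene S100a8 by 1.03 (limma adjusted p = 0.654), the S100a8 value led by e7 replicate 3. In bulk RNA, fewer cells of a type and less RNA per cell cannot be told apart.

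Egr1, an immediate-early transcription factor, had the largest rise that met the naming rule. It had a signal of 3654, 1387, 3509 and 2142 on the e7 arrays, against 716 and 350.0 on the bead arrays. Every e7 array was above both bead arrays, as the naming rule required, and the difference was 2.31 ± 0.60, or 4.96-fold (limma adjusted p = 0.0274). The rule took only called genes without overlap, so separation of the arrays adds nothing for the 12 rises and 12 falls it named. Gadd45b, a stress gene that acts on the p38 and JNK kinase pathways, had 2434, 1002, 909.4 and 1587 with e7 conidia, against 385.7 and 331.6 with beads. Its rise was 1.94 ± 0.40 (limma adjusted p = 0.00669), and its 2 other probe sets gave 1.06 and 0.87, neither called (the mean of all 3 gave 1.29, limma adjusted p = 0.036). Maff, a small Maf transcription factor that lacks a transactivation domain, had 3110, 2726, 2386 and 1327 with e7 conidia and 1160 and 745.4 with beads. The Maff groups came close between e7 replicate 4 and bead replicate 1 without overlapping, and the rise was 1.29 ± 0.25 (limma adjusted p = 0.00509). Zfp36, which encodes tristetraprolin, a protein that destabilizes Tnf and other AU-rich messages, was 1.42 ± 0.41 higher (limma adjusted p = 0.0428) in 4 of 4 e7 arrays.

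These calls leaned on single arrays to different degrees. Leaving out 1 array at a time kept Egr1 between 1.79 and 2.83, but its call was lost without e7 replicate 3 or either bead array. Gadd45b stayed between 1.66 and 2.13 and lost its call without either bead array. Maff stayed between 0.97 and 1.61 and lost it only without bead replicate 2. Zfp36 stayed between 1.04 and 1.81 and kept its call only without e7 replicate 4. With the 3'/5' covariate Egr1 (2.71), Gadd45b (1.87) and Maff (1.35) were called, and Zfp36 (0.85, limma adjusted p = 0.203) was not. With array weights Egr1 (2.19) and Zfp36 (1.45) lost their calls (limma adjusted p = 0.128 for each), and Gadd45b and Maff kept theirs. Without e7 replicates 2 and 3 together, Gadd45b (2.46) was called. Egr1 (2.48), Maff (1.13) and Zfp36 (1.74) then were not (limma adjusted p = 0.0714, 0.0532 and 0.0628).

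Of 23 immediate-early factors measured, 2 rose (Egr1 and Maff) and none fell at this threshold, with a list median of 0.19 beside -0.26 for all genes. Over all genes, 1.28% were called higher and 2.7% lower, and list counts here and below stand beside those shares. Of 18 genes of MAP kinase feedback, 2 rose (Gadd45b and Zfp36), with a median of 0.12. Fos, the partner of Jun in AP-1, and Egr2, a relative of Egr1, were among the brightest of the factors with either particle: Fos averaged 13.07 with e7 conidia and 12.66 with beads (log2), and Egr2 13.11 and 12.80. Their differences of 0.42 and 0.30 did not pass (limma adjusted p = 0.369 and 0.519). Plk2, a stress-induced polo-like kinase, differed by 1.98 ± 0.81 (limma adjusted p = 0.153) with all 4 e7 arrays above the beads.

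Among cytokines, Tnf was the member that rose. Its signal was 1255, 622.8, 662.3 and 1346 with e7 conidia, against 390.4 and 231.0 with beads, with no overlap. The rise was 1.61 ± 0.43, or 3.04-fold (limma adjusted p = 0.0318). Leave-outs gave 1.23 to 1.98, and the call was lost without e7 replicate 1 or either bead array. The Tnf call was also lost with the 3'/5' covariate (1.40, limma adjusted p = 0.061) and with array weights (1.55, limma adjusted p = 0.141). Il33, an alarmin mainly known from epithelium, was 1.66 lower (limma adjusted p = 0.036), but its signal was 26.6, 24.6, 9.68 and 14.9 with e7 conidia, against 107 and 28.8 with beads. The Il33 fall rested on bead replicate 1, without which it was -0.72 and not called; it also lost its call without e7 replicate 2 or 3 and with quantile normalization (-1.35, limma adjusted p = 0.0853), and was -0.55 with signals floored at 50 (limma adjusted p = 0.000959). Of 20 cytokines measured, these 2 were called, and 8 averaged under 50 in both groups.

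Of the interleukin-1 genes, Il1a and Il1b were bright with e7 conidia, and their 2 bead arrays lay far apart. Il1a had 1011, 1235, 1694 and 1385 with e7 conidia, against 860.2 and 350.3 with beads, a difference of 1.25 ± 0.42 that did not pass (limma adjusted p = 0.083). Il1b had 2398, 1712, 9127 and 2032 with e7 conidia, against 2328 and 358.2 with beads. The Il1b groups overlapped, and the difference of 1.69 ± 0.97 had an adjusted p of 0.327 in limma. Mock replicate 3, an outlying array described below, had Il1b at 13.45 (log2), against 7.59 to 7.86 on the other mock arrays. Leaving it out raises the Il1b differences from mock, and those with all 4 mock arrays are not given here. The plot of differences from mock draws Il1a with all 4. Without mock replicate 3, both genes were called over mock with e7 conidia. Il1a was 2.05 and Il1b 3.83 (limma adjusted p = 0.000239 and 0.000111). With beads they were 0.80 and 2.14 over mock, neither called (limma adjusted p = 0.35 and 0.143).

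Cxcl1 and Cxcl2, the main neutrophil-attracting chemokines of mouse lung, were raised over mock by e7 conidia, and Cxcl1 by beads too. Cxcl1 had 1591, 1658, 1383 and 1206 with e7 conidia, against 546.3 and 229.2 with beads. All e7 arrays were above both bead arrays, yet the difference of 2.03 ± 0.62 missed the threshold (limma adjusted p = 0.0547), and with the 3'/5' covariate it was 2.41 and passed (limma adjusted p = 0.0245). Cxcl2 had 11590, 12000, 14960 and 9992 with e7 conidia, against 6981 and 3355 with beads, a difference of 1.31 ± 0.84 (limma adjusted p = 0.391). Of 24 chemokines, Ccl22, which attracts CCR4-bearing T cells, was the 1 that rose, by 1.13 ± 0.34 (limma adjusted p = 0.0493), from signals that reached only 145 with e7 conidia and 41.2 with beads. Its call was kept without e7 replicate 4 and lost without any other array, with values of 0.87 to 1.29. It was also lost with a floor of 50 (0.73, limma adjusted p = 0.142), with the 3'/5' covariate (1.0, limma adjusted p = 0.0896) and narrowly in the fit on the mean of a gene's probe sets (limma adjusted p = 0.0502). The bead arrays were the low ones for Ccl22. Without mock replicate 3, it was -0.27 against mock with e7 conidia and -1.41 with beads, neither called (limma adjusted p = 0.634 and 0.0536). The Ccl22 differences with all 4 mock arrays are not given here. Cx3cl1, fractalkine, was called lower at -1.52, while its 2 other probe sets gave 0.27 and 1.0 and the mean of the 3 was -0.08 (limma adjusted p = 0.94), so its direction is unsettled. The Cx3cl1 call was lost without e7 replicate 2 or 3 or either bead array (-1.95 to -1.11 over the leave-outs, and -0.59 without both e7 arrays).

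Irf1, an interferon- and NF-kB-responsive transcription factor, was the only one of 23 interferon-responsive genes called. Its signal was 2077, 1551, 1603 and 1596 with e7 conidia, against 974.2 and 993.9 with beads. All e7 arrays were above the beads, with e7 replicate 1 set apart as the highest, for a rise of 0.78 ± 0.16 (limma adjusted p = 0.00669). Among the single leave-outs (0.69 to 0.83) the Irf1 call was lost only without bead replicate 1. Of 17 NF-kB subunits and feedback genes 0 were called: Nfkbia, the IkB-alpha feedback inhibitor, differed by 0.41 ± 0.16 (limma adjusted p = 0.144), Nfkbiz by 1.64 (limma adjusted p = 0.258) and Rela, the p65 subunit, by -1.21 (limma adjusted p = 0.0766).

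The 250 bases before the start of Tnf, Irf1, Cxcl1 and Cxcl2 are shown because these genes were called between the particles (Tnf, Irf1) or were high with both (Cxcl1, Cxcl2) and are textbook NF-kB targets. Sequences are from RefSeq (GRCm38.p6), 5′ to 3′ on the gene's strand: chr17:35202008-35202257 (minus) for Tnf, chr11:53769764-53770013 (plus) for Irf1, of whose 2 listed windows the first is shown, chr5:90890995-90891244 (plus) for Cxcl1 and chr5:90903649-90903898 (plus) for Cxcl2. Capitals mark matches to the NF-kB consensus on either strand.
Tnf: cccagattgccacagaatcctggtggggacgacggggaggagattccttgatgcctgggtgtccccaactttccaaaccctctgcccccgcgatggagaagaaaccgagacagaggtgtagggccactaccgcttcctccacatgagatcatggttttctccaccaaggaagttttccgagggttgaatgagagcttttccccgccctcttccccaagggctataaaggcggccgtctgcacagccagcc
Irf1: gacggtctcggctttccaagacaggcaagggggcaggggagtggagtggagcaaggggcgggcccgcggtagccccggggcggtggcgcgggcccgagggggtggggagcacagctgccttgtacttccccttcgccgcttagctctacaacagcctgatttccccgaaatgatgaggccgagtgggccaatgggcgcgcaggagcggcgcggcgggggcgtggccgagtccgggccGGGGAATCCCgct
Cxcl1: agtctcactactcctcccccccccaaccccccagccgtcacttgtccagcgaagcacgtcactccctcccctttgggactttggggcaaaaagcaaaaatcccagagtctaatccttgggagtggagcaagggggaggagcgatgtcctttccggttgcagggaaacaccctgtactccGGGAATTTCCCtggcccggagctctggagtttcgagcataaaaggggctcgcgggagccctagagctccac
Cxcl2: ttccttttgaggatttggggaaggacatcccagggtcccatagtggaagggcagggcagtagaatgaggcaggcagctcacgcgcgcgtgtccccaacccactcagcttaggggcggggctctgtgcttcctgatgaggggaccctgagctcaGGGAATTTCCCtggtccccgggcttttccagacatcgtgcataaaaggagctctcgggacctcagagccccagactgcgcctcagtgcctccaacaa
Irf1 held 1 match, whose first base lay 13 bases before the start. Cxcl1 and Cxcl2 each held 2 overlapping matches, in the same run of letters, first 71 and 97 bases before the start. No match stood in the Tnf window, which says only that these letters are not in it. Of all 32851 listed windows of this length, 7.25% held at least 1 match.

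The metallothioneins, small cysteine-rich proteins that bind zinc and copper, were higher after e7 conidia than after beads in 2 of 3 members. Mt2 had 4745, 3898, 3182 and 2566 with e7 conidia, against 1084 and 996.3 with beads. Mt1 had 3151, 2776, 4139 and 4570 with e7 conidia, against 1330 and 936.8 with beads. Neither pair of groups overlapped, as the naming rule required, and the rises were 1.75 ± 0.44 for Mt2 and 1.68 ± 0.43 for Mt1 (limma adjusted p = 0.0228 and 0.0243). A second Mt1 probe set gave 0.49 and was not called, and the mean of both lost the call (1.08, limma adjusted p = 0.122). Mt3, the form best known from brain, was dim and differed by -0.65 (limma adjusted p = 0.725). The Mt2 call was lost without e7 replicate 2 or either bead array (1.61 to 1.90 over the leave-outs), and the Mt1 call without e7 replicate 3 or either bead array (1.43 to 1.94). With the 3'/5' covariate neither was called (Mt2 1.27, Mt1 0.99, limma adjusted p = 0.0841 and 0.134). Without e7 replicates 2 and 3 together neither was called (Mt2 1.75, Mt1 1.77, limma adjusted p = 0.0964 and 0.0794). With array weights Mt2 was called (1.86, limma adjusted p = 0.0409) and Mt1 was not (1.56, limma adjusted p = 0.0891).

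Mt1 and Mt2 are neighbours on chromosome 8, and both are known targets of the zinc sensor MTF1, which binds metal response elements. Their upstream 250 bases are shown because the pair moved together; capitals mark the element's core, searched as TGCACNC and TGCGCNC on both strands. Windows are chr8:94178839-94179088 (plus) for Mt1 and chr8:94172368-94172617 (plus) for Mt2, from RefSeq (GRCm38.p6).
Mt1: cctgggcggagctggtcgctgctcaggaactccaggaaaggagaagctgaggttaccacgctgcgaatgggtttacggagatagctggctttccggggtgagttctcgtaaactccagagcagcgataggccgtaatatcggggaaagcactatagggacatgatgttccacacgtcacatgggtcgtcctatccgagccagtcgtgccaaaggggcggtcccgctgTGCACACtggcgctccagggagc
Mt2: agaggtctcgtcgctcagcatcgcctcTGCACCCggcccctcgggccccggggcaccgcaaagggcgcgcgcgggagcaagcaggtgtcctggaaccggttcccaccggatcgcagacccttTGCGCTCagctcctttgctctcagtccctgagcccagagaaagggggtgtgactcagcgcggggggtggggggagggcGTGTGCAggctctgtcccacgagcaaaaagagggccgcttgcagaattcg
Mt1 held 1 match, starting 23 bases before the start, and Mt2 held 3, at 223, 128 and 50 bases. The counts say only what these 250 bases hold and do not count the elements of either gene as a whole. Of the 32851 windows, 21.4% held at least 1 match and 5.17% at least 2.

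Other stress genes moved singly. Gclm, the regulatory subunit of the enzyme that starts glutathione synthesis and an NRF2 target, had 542.3, 264.5, 245.3 and 588.2 with e7 conidia, against 879.1 and 872.9 with beads. It was below the beads in 4 of 4 e7 arrays, at -1.21 ± 0.27 (limma adjusted p = 0.0111), with leave-outs of -1.42 to -1.0 and no call without e7 replicate 2 or either bead array. Without e7 replicates 2 and 3 together it was -0.63 (limma adjusted p = 0.227). Nfe2l2, which encodes NRF2 itself, differed by -0.42 ± 0.14 (limma adjusted p = 0.0711), and Hmox1, heme oxygenase 1, by 0.86 ± 0.37 (limma adjusted p = 0.185), so the 2 NRF2-linked genes Gclm and Hmox1 had opposite signs. Of 18 genes of the NRF2 list, Gclm was the 1 called.

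Of 13 heat shock genes measured, 2 rose, beside 1.28% of all genes called higher. Hspe1, the mitochondrial co-chaperonin, had 2497, 2170, 2991 and 2074 with e7 conidia, against 1143 and 1298 with beads. Its rise was 0.98 ± 0.21 (limma adjusted p = 0.00723), shared by its other probe set at 0.72. Among the single leave-outs (0.88 to 1.07) the Hspe1 call was lost only without bead replicate 1. It was also lost without e7 replicates 2 and 3 together (0.90, limma adjusted p = 0.0543). Hspa4, a nucleotide exchange factor for Hsp70, rose by 0.85 ± 0.21 (limma adjusted p = 0.0216), with e7 replicate 4 at 3597 level with bead replicate 2 at 3633, and lost its call without e7 replicate 2 or 3 or bead replicate 1 (0.66 to 1.08). Hspa4 was 0.46 as the mean of its probe sets (limma adjusted p = 0.215) and 0.44 without both e7 arrays (limma adjusted p = 0.32). The inducible Hsp70 gene Hspa1a (1.55, limma adjusted p = 0.263) and its co-chaperone Dnajb1 (1.31, limma adjusted p = 0.0603) did not pass. In the unfolded protein response list, 2 of 18 were called, Pdia3, a disulfide isomerase, at 0.83 and Atf6, a membrane-bound sensor, at -0.75. Pdia3 lost its call without e7 replicate 2 or either bead array (0.70 to 0.96), and Atf6 without e7 replicate 2 or 3 or either bead array (-0.91 to -0.58). With the 3'/5' covariate neither was called (Pdia3 0.65, Atf6 -0.57; limma adjusted p = 0.0718 and 0.119), nor was Atf6 with quantile normalization (-0.57, limma adjusted p = 0.108).

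**Figure D3:**
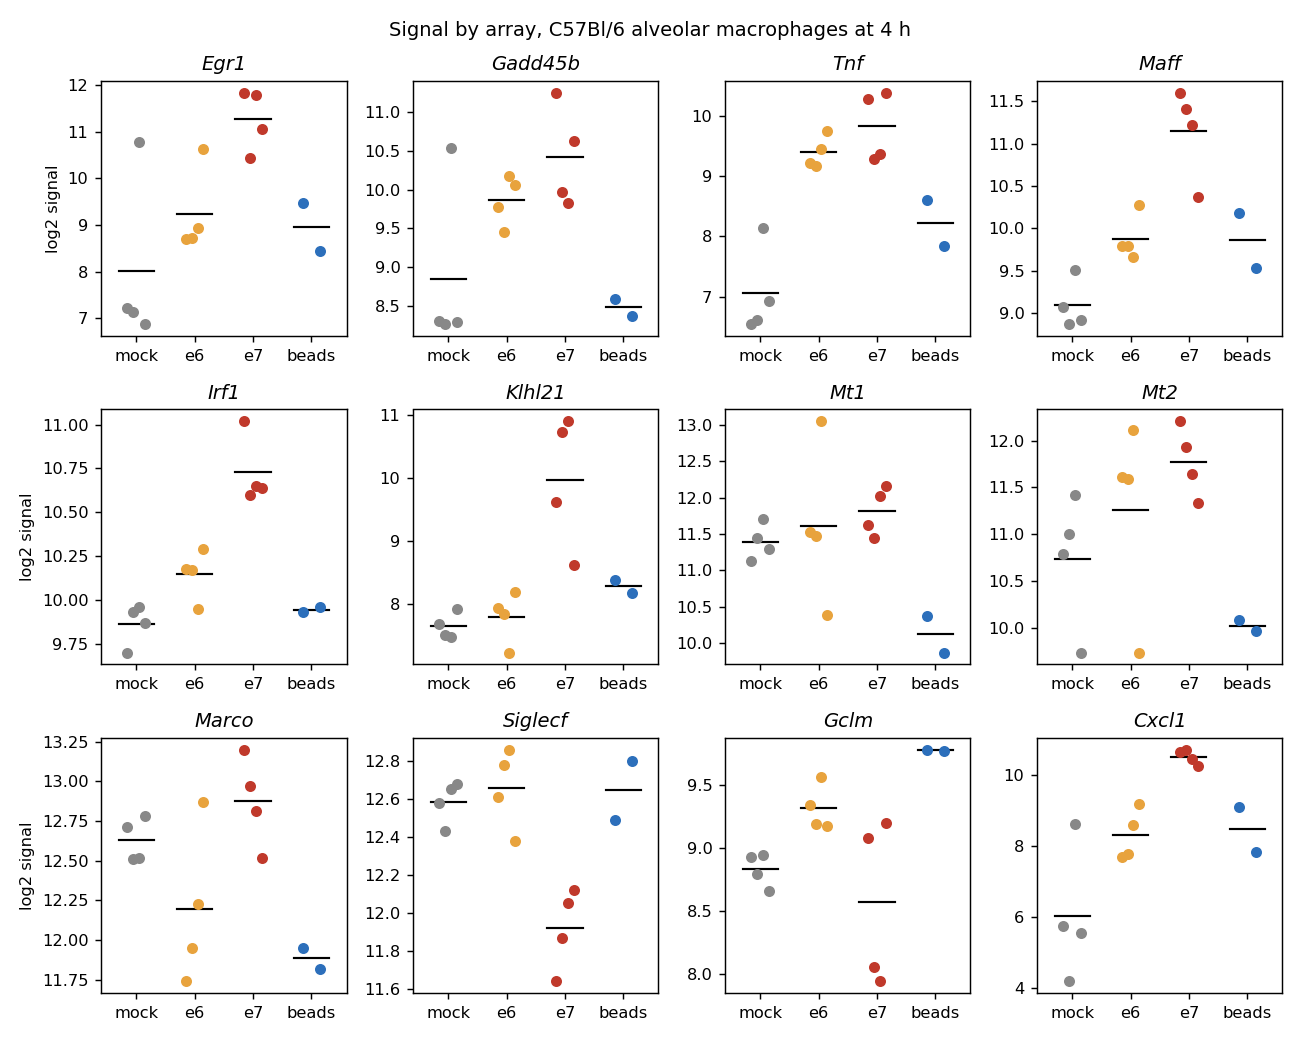
Log2 signal of 12 genes on every array of the mock, e6, e7 and bead groups at 4 h; each point is an array and each bar a group mean. In Egr1, Gadd45b, Tnf, Maff, Irf1, Klhl21, Mt1, Mt2, Marco and Cxcl1 all 4 e7 arrays are above both bead arrays, and in Siglecf and Gclm all are below.

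Surface receptors and the uptake machinery showed few and mixed calls. Marco, a scavenger receptor that binds unopsonized particles such as latex beads, had 9408, 8016, 7179 and 5881 with e7 conidia, against 3967 and 3616 with beads. All 4 e7 arrays were higher, by 0.99 ± 0.28 (limma adjusted p = 0.0421). The bead arrays were the low ones: Marco was -0.74 in beads minus mock and 0.25 in e7 conidia minus mock, neither called. Over the leave-outs (0.88 to 1.11) its call against beads was kept only without e7 replicate 4. The Marco call was also lost with quantile normalization (0.90, limma adjusted p = 0.0666) and with array weights (1.06, limma adjusted p = 0.103). Siglecf, the sialic acid-binding lectin used to identify alveolar macrophages, had 3197, 3750, 4230 and 4439 with e7 conidia, against 5743 and 7112 with beads, a fall of 0.72 ± 0.15 (limma adjusted p = 0.00733) in 4 of 4 arrays. Among the single leave-outs (-0.88 to -0.57) Siglecf lost its call only without bead replicate 2. Siglecf was lower with e7 conidia than mock as well (-0.67, limma adjusted p = 0.000447), with beads at 0.06 against mock (limma adjusted p = 0.884).

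Of 20 scavenger, opsonic and apoptotic-cell receptors, 2 rose (Marco and Itgb2) and 1 fell (Sirpa), beside 1.28% and 2.7% of all genes. Itgb2, the beta-2 integrin chain of complement receptor 3, rose by 0.45 ± 0.12 (limma adjusted p = 0.0336), and Sirpa, the inhibitory receptor for CD47, fell by 0.75 ± 0.20 (limma adjusted p = 0.0321). Both lost their calls without e7 replicate 2 or 3 or either bead array (0.37 to 0.53 and -0.90 to -0.55), and were 0.24 and -0.31 without both e7 arrays (limma adjusted p = 0.357 and 0.46). Itgb2 also lost it with quantile normalization (0.25, limma adjusted p = 0.231), and so under that scaling none of the 20 was called higher and Sirpa was the 1 called lower. Sirpa lost its call with the 3'/5' covariate (-0.63, limma adjusted p = 0.068) and as the mean of its probe sets (-0.41, limma adjusted p = 0.362). Of 23 genes of fungal recognition, Myd88, the Toll-like receptor adaptor, was the 1 called, at -0.78 ± 0.18 (limma adjusted p = 0.0145), with no call without the same 4 arrays (-0.94 to -0.62) and -0.42 without both e7 arrays (limma adjusted p = 0.244). The receptors themselves were not called: Clec7a averaged 13.62 with e7 conidia and 13.46 with beads (log2; difference 0.16 ± 0.15, limma adjusted p = 0.593), Tlr2 13.10 and 13.16 (-0.06), and Clec4n, dectin-2, 13.92 and 13.59 (0.33, limma adjusted p = 0.248). Clec4e, Mincle, differed by 0.70 ± 0.49 (limma adjusted p = 0.443).

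Of 21 actin and phagocytic cup genes, 2 fell, beside 2.7% of all genes called lower. Was, the haematopoietic activator of the Arp2/3 complex, was 1.19 ± 0.29 lower (limma adjusted p = 0.0197), in 4 of 4 e7 arrays, and -0.74 without e7 replicates 2 and 3 (limma adjusted p = 0.254). Coro1a, coronin 1, had 4563, 1687, 991.6 and 7345 with e7 conidia, against 6536 and 7188 with beads. The Coro1a fall of 1.32 ± 0.38 (limma adjusted p = 0.0437) lay on e7 replicates 2 and 3, e7 replicate 4 was above both bead arrays, and without replicates 2 and 3 it was -0.24. Rps10, a ribosomal protein of the small subunit, had the same shape, 1852, 790.6, 742.4 and 4611 with e7 conidia against 3322 and 4203 with beads, and -0.35 without e7 replicates 2 and 3, beside -1.32 in full. Was, Coro1a and Rps10 each lost their calls without e7 replicate 2 or 3 or either bead array (-1.49 to -0.97, -1.80 to -0.84 and -1.86 to -0.98), and as the mean of their probe sets Coro1a was -0.92 and Rps10 -0.60, neither called (limma adjusted p = 0.0989 and 0.312). Of 9 NADPH oxidase genes 0 were called, and Cybb, its gp91phox subunit, differed by 0.43 ± 0.33 (limma adjusted p = 0.492).

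In glycolysis, Pfkl, liver-type phosphofructokinase, had 1273, 779.3, 533.0 and 811.0 with e7 conidia, against 342.1 and 340.9 with beads, a rise of 1.24 ± 0.30 (limma adjusted p = 0.0186). Ldha, lactate dehydrogenase A, had 9701, 9268, 9186 and 8796 with e7 conidia and 5962 and 6171 with beads, a rise of 0.61 ± 0.18 (limma adjusted p = 0.0446) with narrow groups. These 2 were the called members of 19 glycolysis and hypoxia genes, and Aldoa, aldolase A, came next at 0.43 (limma adjusted p = 0.0578). Pfkl lost its call without either bead array (1.03 to 1.45), and Ldha kept its call only without e7 replicate 4 (0.58 to 0.63). Ldha also lost its call with quantile normalization (0.51, limma adjusted p = 0.115) and the 3'/5' covariate (0.55, limma adjusted p = 0.0717). Among 25 lysosome genes 3 rose, beside 1.28% of all genes called higher. They were Psap, the saposin precursor (0.60 ± 0.14), Atp6v1h, a subunit of the proton pump (0.63 ± 0.18), and Hexa, a beta-hexosaminidase chain (0.42 ± 0.12). Limma adjusted p was 0.0171, 0.038 and 0.0427 in that order. Psap lost its call without e7 replicate 2 or bead replicate 2 (0.41 to 0.79), Atp6v1h without e7 replicate 1 or 2 or either bead array (0.54 to 0.71), and Hexa kept its call only without e7 replicate 4 (0.34 to 0.51). With quantile normalization Psap (0.34, limma adjusted p = 0.305) and Hexa (0.25, limma adjusted p = 0.239) were not called, and the list then held 1 called higher and 1 called lower. Atp6v1h was not called with the 3'/5' covariate (0.55, limma adjusted p = 0.0731), nor Psap in the fit on the mean of a gene's probe sets (0.60, limma adjusted p = 0.127).

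In the respiratory chain and proteasome lists 1 of 25 genes each was called, near the 3.98% of all genes. These were Ndufa9 of respiratory complex I (0.65 ± 0.18) and Psmb7 of the proteasome core (0.96 ± 0.26), with limma adjusted p of 0.036 and 0.0319. Both lost their calls without e7 replicate 2 or 3 or either bead array (0.55 to 0.74 and 0.80 to 1.25), and Psmb7 was 0.51 without both e7 arrays (limma adjusted p = 0.379). No cell cycle gene of 29, apoptosis regulator of 16, lipid gene of 18 or suppressor of cytokine signalling of 8 was called. Over the 34 lists, 31 of 560 measured members were called (21 higher, 10 lower), which was 5.54%, beside 3.98% of all genes. The members and lists were chosen with earlier results of these data known, so these shares are not a test of the lists. All genes split into 1.28% called higher and 2.7% called lower.

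**Figure D4:**
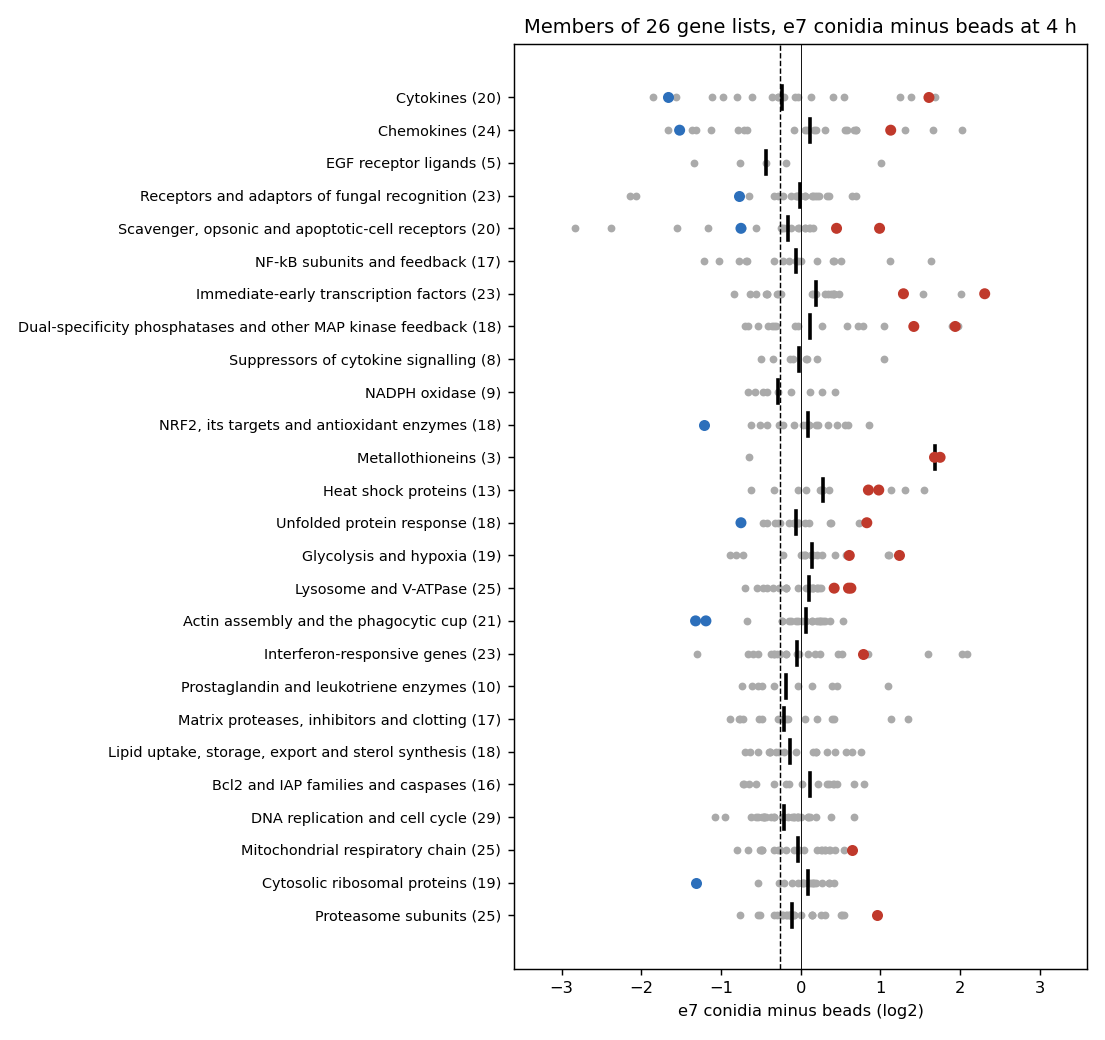
Each row is 1 of the 26 gene lists that are not cell markers, with its number of measured members, and each point a member's difference, e7 conidia minus beads (log2); red and blue points were called higher and lower, grey points were not called. Short black bars are the medians of the lists drawn, which lie between -0.44 and 0.28 except for the 3 metallothioneins at 1.68, and the dashed line is the median of all genes at -0.26.

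Outside the lists, the largest rises that met the naming rule included Klhl21, an adaptor of the CUL3 ubiquitin ligase. It had 788.6, 1714, 1920 and 396.4 with e7 conidia, against 336.2 and 290.8 with beads, and rose by 1.69 ± 0.33 (limma adjusted p = 0.00447). The groups did not overlap although e7 replicate 4 came near the beads, and Klhl21 was the 1 of 12 named rises called in all 6 single leave-outs (1.38 to 2.14). Without e7 replicates 2 and 3 together, its 2 highest arrays, it was 0.84 and not called (limma adjusted p = 0.108). Hnrnph3, an RNA-binding splicing factor, had 1143, 1518, 1723 and 454.0 with e7 conidia, against 239.3 and 395.0 with beads. It had the lowest adjusted p of the named rises (1.81 ± 0.30, limma adjusted p = 0.000809). Among the single leave-outs (1.45 to 2.23) Hnrnph3 lost its call only without bead replicate 1. Fbxo32, atrogin-1, a ubiquitin ligase subunit known from muscle wasting, rose by 1.66 ± 0.33 (limma adjusted p = 0.00544) and its other probe set by 3.17. Among the single leave-outs (1.30 to 2.02) the Fbxo32 call was lost only without bead replicate 2. It was also lost without e7 replicates 2 and 3 together (1.49, limma adjusted p = 0.0512).

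Ccrl2, an atypical receptor that binds chemerin and is induced in activated macrophages, had 1223, 864.3, 814.4 and 912.6 with e7 conidia, against 236.1 and 220.2 with beads. The difference was 2.05 ± 0.52 (limma adjusted p = 0.0242), and the call was lost without e7 replicate 2 or either bead array (1.92 to 2.12). The Ccrl2 call was also lost with array weights (2.08, limma adjusted p = 0.0912) and without e7 replicates 2 and 3 together (2.21, limma adjusted p = 0.0712). Tsc22d3, the glucocorticoid-induced leucine zipper, rose by 2.01 ± 0.52 (limma adjusted p = 0.0266) and lost its call without e7 replicate 2 or 3 or either bead array (1.85 to 2.16). It was not called with the 3'/5' covariate (1.58, limma adjusted p = 0.0747) or as the mean of its probe sets (1.07, limma adjusted p = 0.0515). Without mock replicate 3, Tsc22d3 was 0.73 against mock with e7 conidia and -1.27 with beads, neither called (limma adjusted p = 0.334 and 0.249). The plot of differences from mock draws Tsc22d3 with all 4 mock arrays. Spr, sepiapterin reductase of tetrahydrobiopterin synthesis (1.88 ± 0.39), Dynlrb1, a dynein light chain (1.66 ± 0.49), and Nek3, a NIMA-related kinase (1.65 ± 0.35), completed the 12, at limma adjusted p of 0.00669, 0.0465 and 0.00739. Spr lost its call without bead replicate 2 (1.08 to 2.68 over the leave-outs) and Nek3 without bead replicate 1 (0.42 to 2.88) or with a floor of 50 (0.73, limma adjusted p = 0.051). Dynlrb1 kept it only without e7 replicate 4 (1.59 to 1.71) and was 0.44 with the 3'/5' covariate (limma adjusted p = 0.445). All 12 had 4 of 4 e7 arrays above both bead arrays, as the naming rule required.

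The largest falls lay among dim genes. Abhd8, an alpha/beta hydrolase, had 19.97, 3.66, 1.46 and 68.6 with e7 conidia, against 100 and 105 with beads, a fall of 3.47 ± 0.75 (limma adjusted p = 0.00753). Its e7 values spanned a wider log2 range than the difference between the groups, and 3 of the 4 were under 50. With signals floored at 50 the difference was -0.92 and not called (limma adjusted p = 0.0994), and without e7 replicates 2 and 3 it was -1.47 and not called (limma adjusted p = 0.195). Among brighter genes, Ago2, the slicing Argonaute of RNA interference, had 191.9, 158.6, 165.4 and 536.5 with e7 conidia, against 753.9 and 773.5 with beads. The fall was 1.74 ± 0.38 (limma adjusted p = 0.00933), with e7 replicate 4 set apart from the other e7 arrays and near the beads. Abhd8 and Ago2 lost their calls without either bead array (-4.43 to -2.58 and -2.16 to -1.57).

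Mpc1, a subunit of the mitochondrial pyruvate carrier, had 589.3, 527.7, 403.2 and 1676 with e7 conidia, against 1755 and 2250 with beads (-1.55 ± 0.35, limma adjusted p = 0.0125). Plxnb2, plexin B2, a semaphorin receptor, had 541.1, 156.1, 133.8 and 740.6 with e7 conidia, against 935.9 and 899.4 with beads (-1.60 ± 0.45, limma adjusted p = 0.0395). Txlng, gamma-taxilin, had 148.9, 97.8, 78.9 and 300.7 with e7 conidia, against 392.3 and 403.2 with beads. In all 3, e7 replicate 4 came nearest to the bead level, and in 9 of the 12 named falls e7 replicates 2 and 3 were the 2 lowest arrays. Txlng, at -1.54 ± 0.27 (limma adjusted p = 0.00138), was the 1 fall called in all 6 single leave-outs (-1.93 to -1.28) and the 1 called without e7 replicates 2 and 3 together (-0.91, limma adjusted p = 0.0493). Mpc1 lost its call without either bead array (-1.99 to -1.30) or without both e7 replicates 2 and 3 (-1.0, limma adjusted p = 0.189), and Plxnb2 without those or e7 replicate 2 or 3 (-2.03 to -1.21, and -0.54 without both e7 arrays).

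Car15, a carbonic anhydrase (-2.22), Hba-a2, an alpha-globin (-1.76), Dennd1a, a Rab35 exchange factor (-1.55), Nupl2, a nucleoporin (-1.54), Bace1, the beta-secretase (-1.51), and Myo19, a mitochondrial myosin (-1.50), completed the 12 falls with Cx3cl1. Their bead signals ran from 79.9 (Nupl2) to 212 (Dennd1a). Without bead replicate 1 none of these 6 was called, and without bead replicate 2 Hba-a2, Dennd1a and Myo19 were not. Leave-out values ran -2.55 to -1.82 for Car15, -1.97 to -1.31 for Hba-a2, -1.86 to -1.19 for Dennd1a, -2.17 to -0.92 for Nupl2, -1.93 to -1.1 for Bace1 and -1.78 to -0.98 for Myo19. Calls were also lost without e7 replicate 2 for Car15, Dennd1a and Bace1, without e7 replicate 3 for Hba-a2, Dennd1a, Nupl2 and Myo19, and without e7 replicate 1 for Bace1. With quantile normalization Hba-a2 (-1.35), Bace1 (-1.27) and Myo19 (-1.21) were not called (limma adjusted p = 0.068, 0.0571 and 0.0539). With a floor of 50 Car15 was -1.25, Hba-a2 -1.15 and Myo19 -0.96, and all 3 were called (limma adjusted p = 0.00135, 0.00175 and 0.00561). Without both e7 replicates 2 and 3, Car15 was -1.28 and Nupl2 -0.83, neither called (limma adjusted p = 0.23 and 0.194).

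A gene can differ between the particles because conidia moved it, because beads moved it, or by some of each, and the 4 mock arrays at 4 h place both groups. These comparisons share arrays with the one above and are given side by side, not as support. With e7 conidia minus mock, 757 genes were called higher (6.11%) and 1414 lower (11.4%), 17.5% in all; with beads minus mock, 74 were higher (0.597%) and 71 lower (0.573%), 1.17% in all. With the 3'/5' covariate, 0 probe sets were called for beads minus mock, with 2181 at an unadjusted p under 0.05, and without bead replicate 1 there were 5.

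Egr1 was 3.27 ± 0.49 over mock with e7 conidia (limma adjusted p = 5.21e-05) and 0.96 with beads (limma adjusted p = 0.414). Klhl21 was 2.32 over mock with e7 conidia and 0.64 with beads, Maff 2.06 and 0.77, Irf1 0.86 and 0.08, and Gadd45b 1.57 and -0.36, with the e7 value called and the bead value not called for each. Tnf was 2.78 over mock with e7 conidia (limma adjusted p = 3.57e-06) and 1.17 with beads (limma adjusted p = 0.148). In contrast Mt1 was 0.41 over mock with e7 conidia and -1.27 with beads, neither called, and Mt2 was 1.04 (limma adjusted p = 0.0452) and -0.72 (not called). Spr, Dynlrb1 and Nek3 were not called with e7 conidia (0.40, -0.21 and 0.04) and were lower than mock with beads (-1.48, -1.87 and -1.61; limma adjusted p = 0.0489, 0.0466 and 0.0246). Gclm was -0.26 with e7 conidia and 0.94 with beads, neither called (limma adjusted p = 0.497 and 0.0645).

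Several genes were over mock with both particles. Cxcl1 was 4.48 ± 0.50 over mock with e7 conidia (limma adjusted p = 4.09e-07) and 2.44 ± 0.62 with beads (limma adjusted p = 0.0413). Ereg, an EGF receptor ligand, was 2.92 over mock with e7 conidia and 1.91 with beads (limma adjusted p = 7.17e-07 and 0.0246), with 1.01 ± 0.42 between them (limma adjusted p = 0.163). Cflar, the caspase-8 inhibitor c-FLIP, was 1.34 over mock with e7 conidia and 0.97 with beads (limma adjusted p = 1.72e-05 and 0.0289), with 0.36 ± 0.23 between them (limma adjusted p = 0.372). Nfe2l2 was called over mock only with beads (0.63, limma adjusted p = 0.0246; e7 conidia 0.20, limma adjusted p = 0.246), and that difference between particles did not pass, as given above. Cxcl2 was 3.95 over mock with e7 conidia and 2.64 with beads (limma adjusted p = 0.000204 and 0.098), and Ccl3, the macrophage inflammatory protein 1-alpha, was 2.61 and 0.95 (limma adjusted p = 0.00391 and 0.549).

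Mock replicate 3 stood apart from the other mock arrays. It had neutrophil markers at a mean log2 of 9.33, against 5.22 to 5.58 on the others, and high Egr1, Gadd45b, Cxcl2, Ccl3 and Il1b. Without it, Cxcl2 was 5.37 over mock with e7 conidia and 4.06 with beads, and Ccl3 was 3.90 and 2.24, with both bead values called (limma adjusted p = 3.02e-05 and 0.0284). Egr1 was then 4.2 with e7 conidia and 1.89 with beads, and both were called (limma adjusted p = 2.86e-10 and 0.035). Plk2 was 5.09 and 3.11, the bead value called (limma adjusted p = 0.04), against 4.21 and 2.23 with all 4 mock arrays, where the bead value was not (limma adjusted p = 0.144). Without it the bead calls of Spr, Dynlrb1 and Cflar were lost (-1.46, -1.81 and 0.97; limma adjusted p = 0.0894, 0.0882 and 0.0515). The comparison of e7 conidia with beads uses no mock array for its group means.

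**Figure D5:**
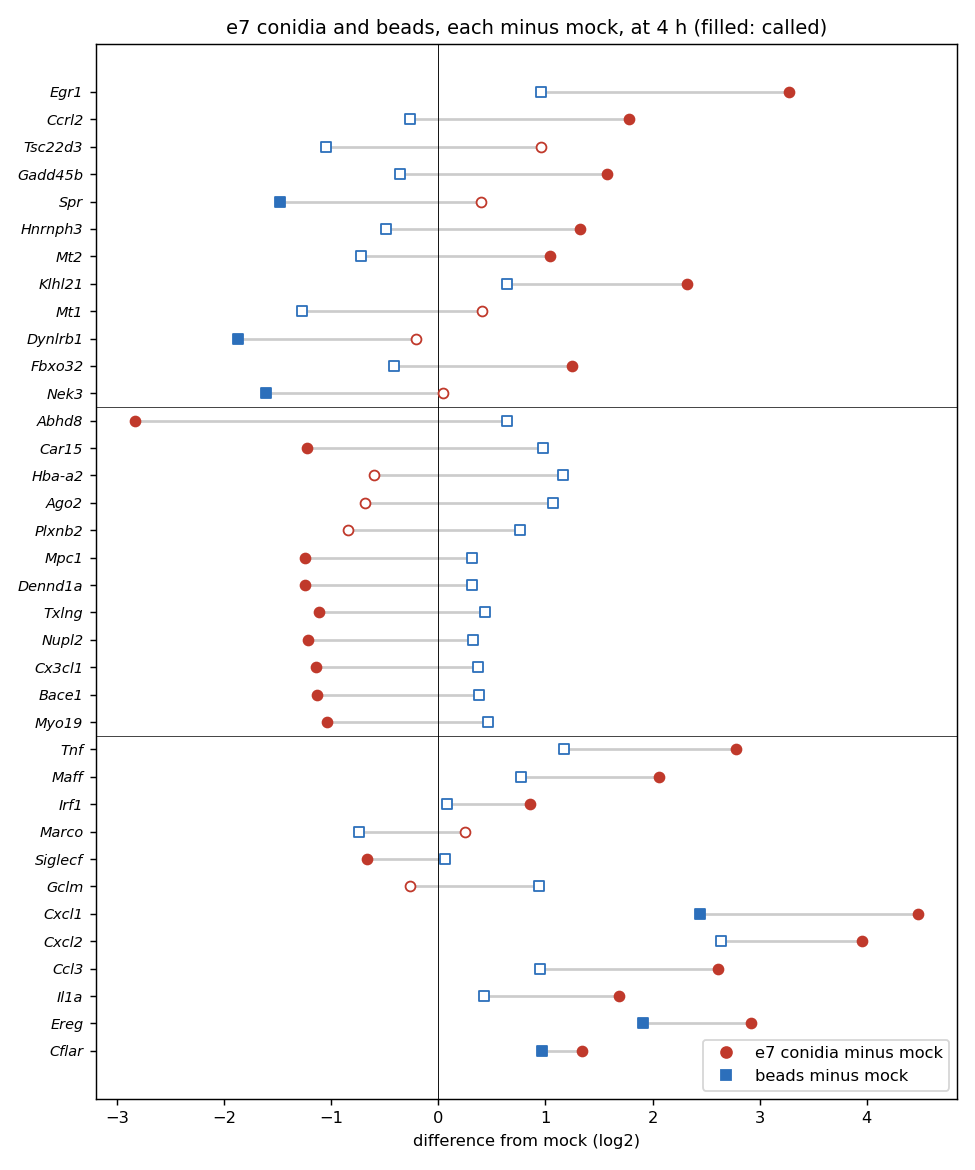
Differences from mock at 4 h (log2) for the 12 named rises (top), the 12 named falls (middle) and 12 further genes (bottom); red circles are e7 conidia minus mock, blue squares beads minus mock, and filled symbols were called. Cxcl1, Ereg and Cflar are filled for both particles, and the distance between the symbols of a gene is its difference between e7 conidia and beads.

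Exposures that share no array with the e7 and bead groups at 4 h give values for the same genes from other arrays. Of the 12 named rises, Egr1 had every e7 array above every mock array in C57Bl/6 mice at 2 h (2.60), in KO mice at 4 h (1.60) and in KO mice at 2 h (2.05), and was 1.24 with overlap for e6 conidia at 4 h. Gadd45b was wholly above mock in C57Bl/6 mice at 2 h (0.50) and KO mice at 4 h (0.71), but wholly below in KO mice at 2 h (-0.44), and overlapped for e6 conidia (1.02). The e6 comparison uses the 4 h mock arrays, and mock replicate 3 was high for both genes. Its log2 signal was 10.79 for Egr1 and 10.53 for Gadd45b, against 6.87 to 7.23 and 8.26 to 8.31 on the other mock arrays. These 2 overlaps can rest on that 1 array, and the e6 comparison without it was not run. Tnf was wholly above mock for e6 conidia at 4 h (2.34) and in KO mice at 4 h (1.44) and 2 h (1.16), and overlapped in C57Bl/6 mice at 2 h (0.94). Maff was wholly above mock for e6 conidia (0.79) and in KO mice at 4 h (0.74) and 2 h (0.68), and overlapped in C57Bl/6 mice at 2 h (0.45). The share of all genes lying wholly above or below mock was not counted in these exposures. Mean differences from mock can be set beside all genes. Of the 12 named rises, which do not include Tnf or Maff, 9 were above 0 for e6 conidia and 5 in C57Bl/6 mice at 2 h. In KO mice 10 were above 0 at 4 h and 3 at 2 h. Of the 12 named falls, 9, 10, 6 and 10 were above 0 in the same order. Shares of all genes above 0 were 47.7%, 47.6%, 44.5% and 65.1%.

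The metallothioneins did otherwise. Mt1 was wholly below mock with e7 conidia at 2 h in C57Bl/6 (-0.63) and KO mice (-1.14), and overlapped at 4 h with e6 conidia (0.21) and in KO mice (0.57). Mt2 was wholly below mock in the same 2 exposures (-1.03 and -0.47). Dynlrb1 was wholly below mock there too, at -1.42 and -1.17. Klhl21 was 0.15 for e6 conidia and 0.36 in C57Bl/6 mice at 2 h, both with overlap, wholly below mock in KO mice at 4 h (-0.13) and wholly above at 2 h (0.36). Siglecf was near 0 for e6 conidia (0.07) and in C57Bl/6 mice at 2 h (0.03), with overlap.

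Over all called genes, the direction in the other exposures varied. Of the 159 called higher, the difference from mock was above 0 for 27.0% with e6 conidia at 4 h and 26.4% with e7 conidia at 2 h in C57Bl/6 mice, beside 47.7% and 47.6% of all genes. In KO mice it was above 0 for 66.7% at 4 h and 35.8% at 2 h, beside 44.5% and 65.1%. Of the 334 called lower, 69.5%, 74.9%, 38.0% and 77.2% were above 0 in the same 4 exposures. The 3'/5' log2 ratio of the exposed minus the mock arrays was 0.73, 1.91, -0.90 and 1.05 in that order, while it was -2.45 for e7 conidia minus beads. The 1 exposure with a ratio difference of the same sign as here, KO mice at 4 h, was the 1 in which more of the genes called higher lay above 0 than below; the part of the ratio in these shares was not tested.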

How the data were processed

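RNA of alveolar macrophages was measured on 51 Affymetrix mouse arrays (15 groups; 100 ng of RNA labelled in 2 cycles, per the labels' protocols). The deposited values are signal intensity on a linear scale per probe set. Per the submitters' processing notes the authors used GCOS and RMA, with no version or role given. The trimmed mean (2% at each end) was about 500.2 on every array and distributions differed, so the values were taken as scaled per array and not quantile normalized. With no read depth on arrays, precision is set by how many there are.

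Of 22690 probe sets, 64 controls were left out. Platform annotation gave 20380 probe sets 1 symbol, 691 several and 1555 none here, and a gene took its brightest probe set over all arrays (12393 genes). Log2 signals, with no pseudocount or filter, entered lmFit, contrasts.fit and eBayes (limma 3.58.1, R 4.3.3) with all arrays and 1 mean per group. P-values were two-sided and adjusted by Benjamini-Hochberg over 22626 probe sets. The fit was tested on simulated data.

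Named genes were the 12 largest rises and 12 largest falls among called genes whose higher group averaged at least 100 and whose arrays did not overlap (119 rises and 243 falls qualified), members of 34 gene lists (8 of them cell markers), and Cybb. The members and lists were chosen with earlier results of these data known. Alternatives were quantile normalization, a floor of 50, dim probe sets left out, the compared arrays only, an intensity trend, array weights, the 3'/5' ratio as a covariate, a replicate block, the mean of a gene's probe sets and leaving out arrays. Promoter sequences were the 250 bases before the start in RefSeq (GRCm38.p6). The genome build behind the probe sets is not given in the sources used here.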

Additional observations from a re-analysis of the deposited data

Results flagged for a closer look

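Within groups of 4 arrays, single arrays lay apart from the other 3 by a gap that passed Dixon's critical value at the 95% level, which chance gives for about 1 group in 20. Mock replicate 3 at 4 h was the high one for several genes, with log2 signals of 10.79 for Egr1, 10.84 for Ccrl2, 10.53 for Gadd45b, 13.86 for Cxcl2, 12.29 for Ccl3, 13.45 for Il1b, 12.22 for Clec4e, 12.03 for Nfkbiz and 13.75 for S100a8. Its mean over the neutrophil markers was 9.33. The e7 and bead means do not use this array, which enters the comparisons with mock and the pooled spread.

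In the e7 group at 4 h, replicate 4 was low for Fbxo32 (8.41) and Cflar (10.01) and high for Ago2 (9.07). Replicate 1 was high for Irf1 (11.02) and low for Bace1 (4.59). Replicate 3 was high for Nfkbia (13.90), Abcg1 (13.82), S100a8 (12.45) and the T and NK cell markers (mean 5.02). Among other mock arrays, replicate 2 was low for Fbxo32 (7.25), and replicate 4 was high for Psmb7 (11.08) and low for Dnajb1 (10.44). The 3'/5' log2 ratio of e6 replicate 4 was 4.749, against 1.29 to 1.81 on the other e6 arrays.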

How the results depend on the processing

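For e7 conidia minus beads, 812 probe sets were called as reported. A floor of 50 gave 3235, leaving out dim probe sets 1348, array weights 396, the 3'/5' covariate 2063 and the fit on the compared arrays 0 (1387 at an unadjusted p under 0.05). Quantile normalization gave 745, with 439 higher and 306 lower. Single leave-outs ranged between 81 (without bead replicate 1) and 2772 (without e7 replicate 4). Without e7 replicates 2 and 3 there were 200, and without these and bead replicate 1, an alternative chosen after seeing the data, 28. Called list members numbered 31 as reported, 73 with the floor, 16 with weights, 58 with the covariate, 0 on the compared arrays, 3 to 79 over the leave-outs, 9 without e7 replicates 2 and 3 and 1 without those and bead replicate 1. The mean of all probe sets of a gene gave 403 genes in place of 493.

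Deviations of e7 and bead arrays with the same replicate number correlated at 0.041 and -0.025. With 2 bead arrays the 2 bead deviations mirror each other, so these values cannot show whether replicate numbers pair the arrays. With the replicate block 1505 probe sets and 52 list members were called, and 515 probe sets for beads minus mock. For e7 conidia minus mock (3511 probe sets), the leave-outs gave 1622 to 5303, the loss of e7 replicates 2 and 3 gave 195 and the compared arrays alone gave 0 (3443 at an unadjusted p under 0.05). For beads minus mock (257), quantile normalization gave 472, the floor 2635, leaving out dim probe sets 554, the trend 416, and both the compared arrays alone (3023 at an unadjusted p under 0.05) and the 3'/5' covariate 0, and the leave-outs 5 to 538. Of 849 pairs of a called named or listed gene and an alternative, 504 kept the call. Of the 50 called named or listed genes 0 changed sign. Leaving out arrays could not change it for the 28 wholly above and the 19 wholly below the beads. Of 529 not called, 325 changed sign under at least 1 alternative. Only 3 of those passed the threshold with the opposite sign, Cxcl11 (-0.54) and Cdh5 (-0.26) with the floor and Ier2 (1.10) without e7 replicates 2 and 3. Over all 493 called genes, 1 had the opposite sign without bead replicate 1 and e7 replicates 2 and 3. With quantile-normalized signals, also chosen after seeing the data, the shares of genes called higher that lay above 0 in the 4 other conidia exposures were 30.7%, 27.4%, 64.7% and 36.3%. The cause of these changes was not tested, except that the fits on the compared arrays and the leave-outs use fewer arrays.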
